A study of Mus musculus with 47 samples.

Results

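The genes described here are the mouse genes that the deposited annotation places in the oxidative phosphorylation pathway map, without the vacuolar proton pumps that the same map holds. The rule for membership reads that annotation alone and no measured value. The members made up 344 of the 51912 genes in the table of LPS-treated macrophages, after 24 vacuolar ATPase genes had been left out. Of these 344 members, 13 were the subunits encoded by mitochondrial DNA, 89 were nuclear genes that code for protein, and 242 were pseudogenes or non-coding genes. In all, 135 members carried a count in at least 1 macrophage library, among them 94 of the 102 coding members, and 209 carried none. By symbol, the nuclear coding members fell into complex I (33 genes), complex II (3), complex III (7), complex IV (21), complex V (14) and all other symbols (11), which held enzymes and predicted genes. The map in the deposited file was not complete, since 10 well-known subunits or close partners (Ndufs1, Ndufs7, Ndufa3, Ndufc1, Sdha, Uqcrh, Uqcr10, Cox7b, Atp5f1 and Usmg5) had no pathway entry, and they were followed as a separate list.

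Oxidative phosphorylation is the route by which mitochondria turn the electrons of NADH and succinate into ATP. Complexes I and II pass electrons to coenzyme Q, complex III passes them to cytochrome c, complex IV hands them to oxygen, and complex V, the ATP synthase, uses the proton gradient built by complexes I, III and IV. Most subunits are made from nuclear genes, but a few hydrophobic core subunits of complexes I, III, IV and V are transcribed inside the mitochondrion, and complex II is wholly nuclear. Macrophages are known to move away from respiration and towards glycolysis when they meet bacterial products, and to rely on respiration when they respond to IL-4.

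RNA-seq was analysed in 12 libraries of 47 samples. Bone marrow-derived macrophages (BMDMs), grown from bone marrow for 5 days with M-CSF, came from WT mice (Zmynd8 fl/fl littermates without Cre) and from Zmynd8 cKO mice (Zmynd8 fl/fl; Lyz2-Cre, in which Cre is made in myeloid cells and removes exons 6 and 7). ZMYND8 is a chromatin reader protein. Each genotype was left untreated (M0), given LPS, a component of bacterial cell walls, at 100 ng/ml (M1), or given the cytokine IL-4 at 20 ng/ml (M2), both for 6 h. Per the study's methods, each library pooled RNA from 3 biological replicates. The age of the mice was not given in the labels. Raw264.7, an established mouse macrophage line, was used as Zmynd8 KO cells (made with LentiCRISPR), as KO cells given back WT Zmynd8 or the D/E-A form (acidic residues of its disordered region changed to alanine), and as p65 KO cells with LPS, alone or given back WT p65 or p65 K122R. The labels of the 3 Zmynd8 libraries named no treatment. The study's text describes the D/E-A and WT Zmynd8 cells as treated with LPS. The column taken as WT p65 was headed as LPS-treated WT cells without naming p65 KO, so whether it holds rescued p65 KO cells, as the label says, or unmodified Raw264.7 cells cannot be told apart, and WT p65 below stands for this column. Every group was 1 library, so no difference below has a replicate check and no p-value is given. The limits printed beside values are 95% Clopper-Pearson limits on the reads of the libraries compared and cover counting error only.

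The 6 BMDM libraries held between 22597408 and 28386612 estimated counts, and the Raw264.7 libraries between 15127110 and 21042628 reads. All 7 macrophage markers were present in every BMDM library, with summed levels of 9397 to 18380 CPM, the count of a gene scaled to a common library total. The summed level of 8 neutrophil markers was 2.29 to 4.38 CPM in M0 and M1 but 388 (WT) and 521 CPM (cKO) in M2, whereas 3 T cell and 4 mast cell markers summed to at most 0.153 CPM anywhere. Nos2 stood at 7472 (WT) and 7391 CPM (cKO) in M1 and at most 8.74 CPM in the other libraries, and Arg1 stood at 1500 and 1541 CPM in M2 and at most 26.5 CPM elsewhere. The lists they come from were less sharply divided. The 4 M1 markers summed to 275 (WT) and 1216 CPM (cKO) in M2, against 66.7 and 33.5 CPM in M0. The 4 M2 markers summed to 445 and 281 CPM in M0, against 2931 and 2844 CPM in M2. Whole-gene counts of Zmynd8, not scaled to library totals, were lower in cKO in M0 but higher in M1 and M2 (2284 against 1842 in M0, 1967 against 2033 in M1 and 3636 against 3944 in M2, WT before cKO). The totals were 26209321 in WT M0 and 22597408 in cKO M0, so the scaled gap in M0 is smaller. Deletion of exons 6 and 7 cannot be read from a count over the whole gene. In these bulk libraries, fewer cells of a type and less RNA per cell cannot be told apart.

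Promoters are shown for 3 members that are described by level below and whose upstream sequence held a motif that was searched. RefSeq promoter windows (GRCm38.p6, 250 bases before to 50 after each start) were held for 67 of the 89 nuclear coding members, as 72 windows. The motifs were the core of NRF1, a factor known for its sites at respiratory genes (GCGCANGCG), an ETS/GABP site (CCGGAAGT) and a YY1 site (AAGATGGCG), each searched on both strands. At least 1 of the 3 stood in 40.3% of the 72 member windows and in 10.6% of all 32851 windows. NRF1 matched 29.2% of member windows against 6.25% of all, ETS/GABP 8.33% against 3.89%, and YY1 8.33% against 1.4%. The lines below give the 250 bases before the start of Uqcr11 (chr10:80406822-80407071, minus strand, a small complex III subunit), Cox6a1 (chr5:115348959-115349208, minus strand, the liver-type complex IV subunit 6A) and Atp5h (chr11:115419920-115420169, minus strand, a stalk subunit of complex V), with the motif letters in capitals.
Uqcr11: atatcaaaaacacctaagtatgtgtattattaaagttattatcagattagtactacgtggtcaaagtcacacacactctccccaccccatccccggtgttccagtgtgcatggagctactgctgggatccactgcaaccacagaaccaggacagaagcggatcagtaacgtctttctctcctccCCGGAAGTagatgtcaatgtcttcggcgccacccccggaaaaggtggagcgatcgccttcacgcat
Cox6a1: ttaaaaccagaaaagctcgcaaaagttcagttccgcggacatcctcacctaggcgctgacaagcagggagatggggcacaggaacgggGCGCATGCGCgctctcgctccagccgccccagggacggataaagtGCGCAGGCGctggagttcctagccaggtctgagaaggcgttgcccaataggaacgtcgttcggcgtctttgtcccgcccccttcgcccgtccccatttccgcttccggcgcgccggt
Atp5h: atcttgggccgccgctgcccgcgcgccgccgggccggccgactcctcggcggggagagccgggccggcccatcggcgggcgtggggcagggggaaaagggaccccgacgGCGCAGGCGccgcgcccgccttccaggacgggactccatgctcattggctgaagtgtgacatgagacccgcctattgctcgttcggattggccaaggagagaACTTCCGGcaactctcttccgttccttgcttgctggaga
The ETS/GABP match of Uqcr11 began 66 bases before the start. Cox6a1 held NRF1 matches at 162 and 117 bases before the start, the earlier of which overlapped a match on the other strand. Atp5h held NRF1 at 141 bases and ETS/GABP on the other strand at 39 bases. A match describes these letters and was not tested as a binding site.

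The sequence of a mitochondrially encoded subunit is shown because it sets how far its counts can be read. The nuclear genome carries copies of mitochondrial DNA that are annotated as pseudogenes, and several are members themselves. Over the 783 bases they share, mt-Co3 (784 bases, a core subunit of complex IV) and its nuclear copy Gm28437 (783 bases) differed at 0 bases, so the first 60 bases read the same in both.
mt-Co3: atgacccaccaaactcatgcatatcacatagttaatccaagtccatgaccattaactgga
Gm28437: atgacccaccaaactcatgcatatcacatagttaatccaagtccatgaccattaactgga
The share of a transcript's 50-base words found in another annotated gene was 100% for mt-Co2, 99.9% for mt-Co3, 99.5% for mt-Atp6, 98.8% for mt-Nd4l and 98% for mt-Nd3. It was 62.2% for mt-Nd4 and 51.1% for mt-Co1, but 8.19% for mt-Nd2 and 7.61% for mt-Nd5. Among nuclear members it was 38.3% for Atp5g2, which encodes the ring subunit c of complex V, 25.4% for Uqcrb, 22.1% for Cox7c and 21.7% for Ndufs5. Counts of these genes can be split between gene and copy by the authors' counting, and mt-Co2, mt-Co3, mt-Atp6, mt-Nd3, mt-Nd4l and Atp5g2 are therefore given below also as the sum with their copies.

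Levels between genes were compared per transcript length, in the deposited TPM, which are scaled by length and library. In the WT M0 library Atp5b, the catalytic beta subunit of complex V, ranked first among the 89 nuclear coding members at 1009 TPM, followed by Cox4i1 (727 TPM), Cox6a1 (631 TPM), Cox8a (581 TPM) and Cox6b1 (580 TPM), all subunits of complex IV. Median levels in this library were 250 TPM for complex V, 159 TPM for complex II, 157 TPM for complex III, 135 TPM for complex IV and 86.6 TPM for complex I. Alternative forms of complex IV subunits known from other tissues or from low oxygen were low or silent. Cox4i2 stood at 0.46 TPM, Cox6a2 at 6.56 TPM and Cox7a1 at 5.03 TPM, and Cox7b2, Cox8b and Cox8c were at 0 TPM. The hypoxia-associated Ndufa4l2, which is grouped by its symbol under complex I here, was at 0 TPM as well. In each library, 8 to 12 of the 89 nuclear coding members were at 0 TPM.

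In untreated cells, transcripts for oxidative phosphorylation were higher in the cKO than in the WT library across nearly the whole set, as were most other short coding genes. Their summed counts made up 0.564% of the WT M0 library and 0.765% of the cKO M0 library for the 89 nuclear coding members, a ratio of 1.36 (limits 1.35 to 1.37), and 1.74% and 2.42% for the mitochondrially encoded subunits, a ratio of 1.39. The other states did not show this gap: nuclear members took 0.405% (WT) and 0.382% (cKO) in M1 and 0.610% and 0.621% in M2. Of the 6 libraries, cKO M0 held the highest share of both classes and the M1 libraries the lowest.

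**Figure D1:**
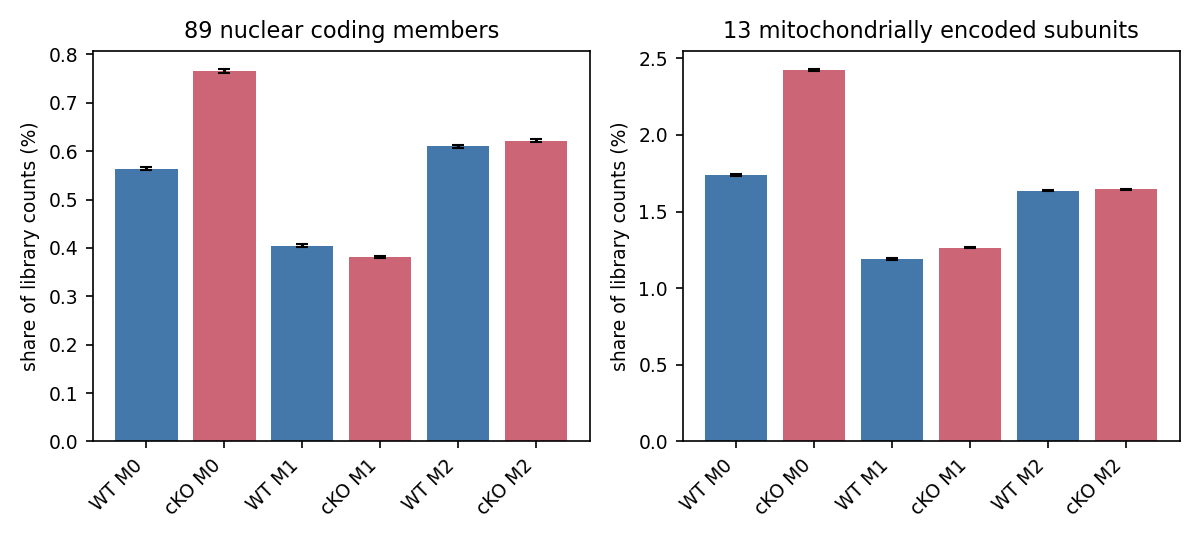
Share of all library counts (y axis, percent, from 0) taken by the 89 nuclear coding members (left) and the 13 mitochondrially encoded subunits (right) in the 6 BMDM libraries, WT in blue and cKO in red, each bar 1 library and each error bar its 95% Clopper-Pearson limits. The cKO M0 bars, at 0.765% and 2.42%, stand above the other 5 libraries in both panels.

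Gene by gene, fold changes were taken on log2(CPM + 1) wherever the libraries compared averaged 10 counts or more, and a gene is called higher or lower here when it passed 1.2-fold. The pseudocount of 1 pulls low genes towards 0, so for genes with few counts the limits, which are those of the read ratio, can lie beyond the fold change. In M0, 100 members were tested, of which 83 were higher in cKO and 1 was lower, whereas over all 12463 genes tested 25% were higher and 29% lower. On the log2 scale the median was 0.55 over the members tested and -0.01 over all genes. By class, 63 of 75 nuclear coding members were higher and 0 lower (median 0.54), all 13 mitochondrially encoded subunits were higher (median 0.71), and 7 of 12 pseudogenes or non-coding members were higher and 1 lower (median 0.45). With the median of other coding genes of similar length subtracted, an alternative added after the data were seen, the nuclear median in M0 was 0.10, with 19 of 75 members past 1.2-fold higher and 3 lower, against 20% and 21.8% of other coding genes on that scale. The counts by complex that follow are without this subtraction. The other 14 nuclear coding members had too few counts, 11 of them with none in either M0 library, and Cox4i2, Cox6b2 and Gm20538 with at most 6.

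Complex I, which oxidises NADH, had 30 of 32 tested nuclear subunits higher in cKO M0, with a median log2 fold change of 0.57 and values from 0.21 to 0.90. Ndufv3, a small flavoprotein-module subunit, stood at 31.3 (WT) and 59.3 CPM (cKO) in M0, 35.8 and 26.0 CPM in M1, and 45.1 and 40.0 CPM in M2. Its log2 fold changes were 0.90 (limits 0.80 to 1.05), -0.44 (-0.61 to -0.31) and -0.17, so cKO was higher in M0 and lower in M1. Ndufv1, the subunit that binds NADH, showed a smaller gap at 42.3 and 53.0 CPM in M0 (0.32), and its M1 libraries, at 22.1 CPM each, and M2 libraries, at 53.2 and 51.8 CPM, were close together. Ndufs4, an accessory subunit needed for a stable complex I, stood at 24.8 and 39.1 CPM in M0, a log2 fold change of 0.64. Ndufb8, a membrane-arm subunit often used to judge whether complex I is assembled, stood at 78.9 and 117 CPM (0.56).

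Complex II, succinate dehydrogenase, had the smallest median difference of the 5 complexes in M0, 0.19 on the log2 scale, and 1 of its 3 members passed 1.2-fold. Sdhb, the iron-sulfur subunit, stood at 102 and 134 CPM in WT and cKO M0 (0.38), while Sdhc and Sdhd, the membrane anchors, differed by 0.12 and 0.19. The flavoprotein subunit Sdha, which lacked a pathway entry, differed by -0.04. In complex III, 6 of 7 nuclear subunits were higher in cKO M0 with a median of 0.56 and values from 0.23 to 0.91. Uqcr11 stood at 34.0 (WT) and 64.7 CPM (cKO) in M0, 15.7 and 13.6 CPM in M1, and 33.7 and 32.9 CPM in M2. Its M0 difference, 0.91 (limits 0.81 to 1.05), was the highest among nuclear members that averaged 100 counts or more, and its cKO M0 value stood apart from the other 5 libraries. Cyc1, the cytochrome c1 heme subunit, differed by 0.56 in M0, Uqcrfs1, the Rieske iron-sulfur subunit, by 0.32, and Uqcrc2, a core subunit, by 0.23.

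In complex IV, cytochrome c oxidase, 11 of 16 tested nuclear members were higher in cKO M0 and the median was 0.45, with values from -0.14 to 0.84. Cox6a1 stood at 137 and 246 CPM in M0, 114 and 106 CPM in M1, and 192 and 189 CPM in M2, with log2 fold changes of 0.84, -0.10 and -0.03, so only in M0 was its gap past 1.2-fold. Cox4i1, a subunit that regulates the enzyme, stood at 249 and 355 CPM in M0 (0.51), Cox5b at 106 and 170 CPM (0.68) and Ndufa4, now counted as a complex IV subunit, at 67.7 and 104 CPM (0.61). The lowest 3 members grouped under complex IV were proteins that make or insert its cofactors and not its subunits. Cox15, which makes heme A, stood at 42.6 (WT) and 38.7 CPM (cKO), a log2 fold change of -0.14 with limits of -0.27 to -0.01, and was the only nuclear coding member tested whose value was below 0. Cox10, which makes the precursor of heme A, differed by 0.07 with limits of -0.11 to 0.26, and Cox11, a copper-delivery protein, by 0.09 with limits of -0.25 to 0.46.

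In complex V, 12 of 14 nuclear subunits were higher in cKO M0 with a median of 0.57 and values from 0.02 to 0.86. Atp5g1, which encodes subunit c of the proton-driven ring, stood at 78.9 (WT) and 145 CPM (cKO) in M0, 27.0 and 26.2 CPM in M1, and 82.8 and 84.5 CPM in M2. Its M0 log2 fold change was 0.86 (limits 0.79 to 0.95), against -0.05 and 0.03 in M1 and M2. Atp5e, the small epsilon subunit of the central stalk, stood at 50.8 and 90.2 CPM in M0 (0.82) and Atp5h at 82.0 and 112 CPM (0.44), whereas Atp5b, Atp5c1 and Atp5a1 differed less. Atp5b stood at 736 and 898 CPM (0.29), Atp5c1 at 142 and 168 CPM (0.25), and Atp5a1, the alpha subunit, at 609 and 619 CPM (0.02, limits -0.01 to 0.06). Outside the complexes, the phosphatases Ppa1, Ppa2 and Lhpp, which split pyrophosphate or related bonds, were higher by 0.45, 0.37 and 0.50.

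**Figure D2:**
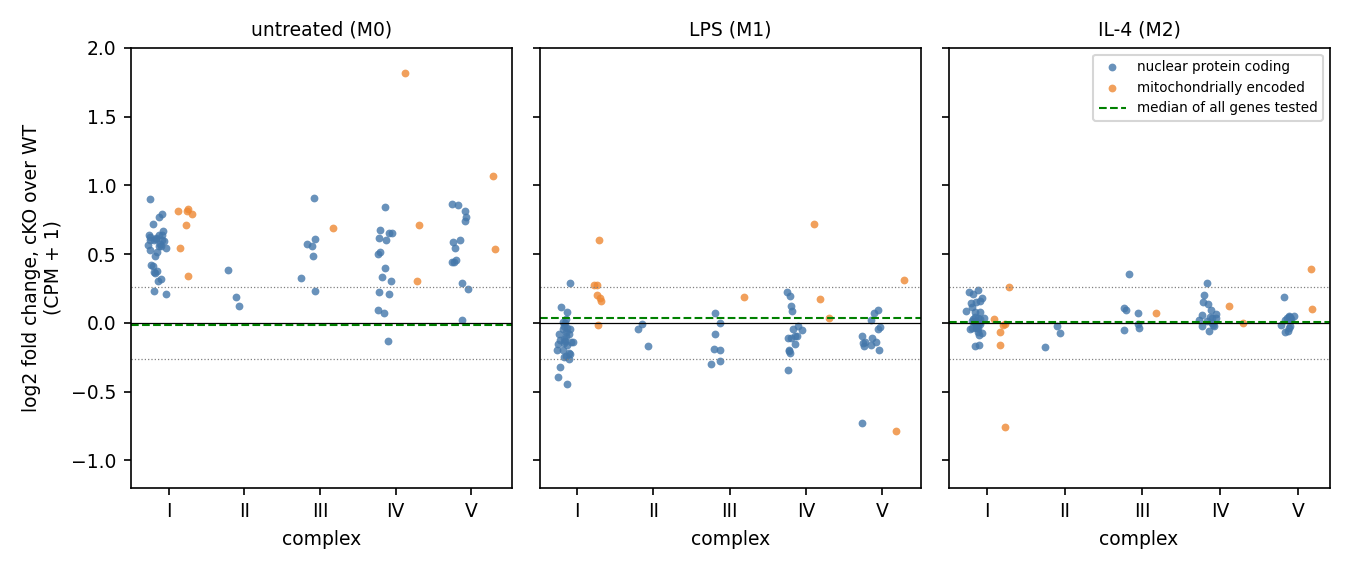
Log2 fold change of cKO over WT (y axis, CPM + 1) for each tested coding member, by complex (x axis), in M0, M1 and M2, nuclear genes in blue and mitochondrially encoded in orange, with dotted lines at 1.2-fold. In M0 nearly all points lie above the dashed all-gene median of -0.01, while in M1 most nuclear points lie just below 0 and in M2 they centre on 0. The orange points far from the rest, such as mt-Co2 at 1.81 in M0, are genes whose sequence is shared with nuclear copies, and mt-Co3 is not drawn in M2.

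Of the mitochondrially encoded subunits, 6 shared under 10% of their words with other genes, and all 6 were higher in cKO M0, by 0.34 (mt-Nd5) to 0.82 (mt-Nd6) on the log2 scale. mt-Nd1, a core membrane subunit of complex I, stood at 1364 (WT) and 2394 CPM (cKO) in M0, 496 and 564 CPM in M1, and 1414 and 1439 CPM in M2, which gave 0.81, 0.18 and 0.03. mt-Cytb, the only mitochondrially encoded subunit of complex III, stood at 1796 and 2903 CPM in M0 (0.69), 1050 and 1195 CPM in M1 (0.19), and 1935 and 2029 CPM in M2 (0.07). Both were high in cKO M0, low in both M1 libraries and alike in M2. mt-Co1, the catalytic subunit of complex IV and the most counted member, stood at 9811 and 12120 CPM in M0, a smaller difference of 0.31.

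Of the 242 pseudogenes or non-coding members, 217 were processed pseudogenes, of which 25 carried a count. Together the 242 took 0.879% of the WT M0 and 1.29% of the cKO M0 library, 0.622% and 0.632% in M1, and 0.825% and 0.827% in M2, the same order of libraries as for the mitochondrially encoded subunits. Most of these reads lay in the unprocessed copies of mitochondrial DNA, led by Gm28661, Gm28437 and Gm10925 with 82963, 75143 and 40090 counts in WT M0. Counts of the subunits shared with nuclear copies depended on which annotation received the reads. mt-Co2 alone differed by 1.81 in M0, from 336 and 1075 counts, but its copies Gm28661 and Gm13341 took 82963 and 103785 counts, and the summed difference was 0.55. mt-Atp6, a proton-channel subunit, differed by 1.07 alone and 0.74 with its copy Gm10925 in M0, and by -0.78 alone but -0.02 summed in M1. mt-Co3 had 2572, 3643, 1227, 1302, 3 and 1357 counts in WT M0, cKO M0, WT M1, cKO M1, WT M2 and cKO M2, while Gm28437 had 75143, 95409, 45415, 44208, 66705 and 57296. The 3 counts in WT M2 set mt-Co3 apart from the other libraries, yet the sum with Gm28437 differed between cKO and WT by -0.07 in M2 and by 0.56 in M0. Summed differences in M0 were 0.78 for mt-Nd3, 0.71 for mt-Nd4, 0.20 for mt-Nd4l, 0.31 for mt-Co1 and 0.77 for Atp5g2. After summing, mt-Nd4l no longer passed 1.2-fold in M0, but the directions in M0 were kept. Gm28439, a copy of mt-Nd4 and a member itself, had 0 counts in the 4 M0 and M1 libraries and 21979 and 20140 counts in the M2 libraries, and was 1 of 2 genes in the whole table with at least 1000 counts in both M2 libraries and 0 in all the others.

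The M0 difference moved with transcript length, which was taken as the longest coding transcript in GENCODE M21. Among other coding genes under 1 kb, the median log2 fold change of cKO over WT in M0 was 0.51 and 73.4% were higher (533 genes). It was 0.27 for transcripts of 1 to 2 kb, 0.02 for 2 to 4 kb and -0.32 for over 4 kb, where 6.73% were higher and 55.3% lower. Most nuclear members are short: 40 of the 75 tested were under 1 kb, of which 37 were higher (median 0.58), and 26 were of 1 to 2 kb, of which 21 were higher (median 0.47). The longest annotated transcript need not be the one counted. Of the 3 members over 4 kb by this measure, Atp5g1 (0.86) and Ndufb2 (0.79) had more TPM than CPM in WT M0 (204 TPM and 78.9 CPM, and 68.6 TPM and 12.7 CPM), as short transcripts do, whereas Cox15 (-0.14) had 13.01 TPM and 42.6 CPM. The part of transcript length in the members' difference was not tested. Macrophage markers moved the other way, with 5 of 7 lower in cKO M0 (median -0.60), and 4 of 4 proliferation markers were higher (median 0.47), and their part was not tested either.

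**Figure D3:**
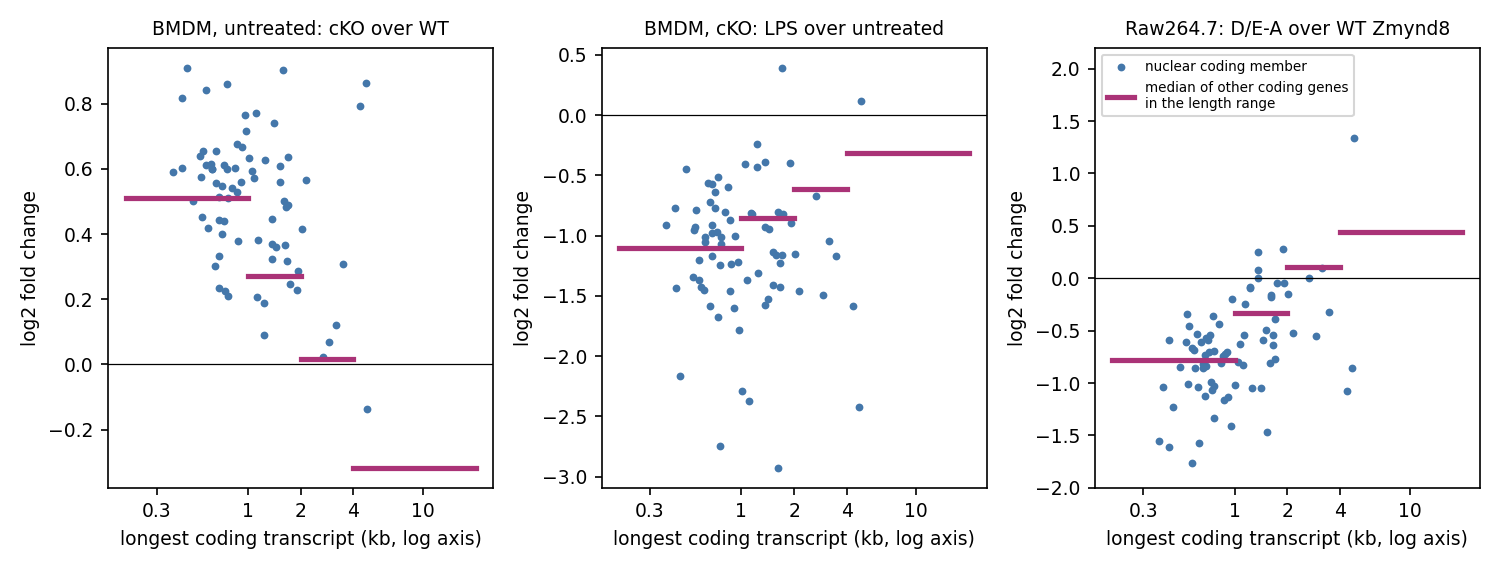
Log2 fold change (y axis) against the length of the longest coding transcript (x axis, kb, log axis) for each tested nuclear coding member (blue points), with the median of all other coding genes in each length range as a bar, for cKO over WT in M0, LPS over untreated in cKO, and D/E-A over WT Zmynd8 in Raw264.7 cells. The bars run from 0.51 to -0.32, from -1.10 to -0.31 and from -0.78 to 0.44 as length increases, and the members under 1 kb scatter around them.

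In LPS-treated cells the difference between genotypes was small and, for nuclear members, mostly below 0. Of 99 members tested, 7 were higher and 12 lower in cKO M1 (median -0.08), against 22.6% higher and 13.3% lower over all 12386 genes, whose median was 0.03. Of 75 nuclear coding members, 1 was higher and 10 lower with a median of -0.12, and the medians were -0.13 for complex I, -0.04 for complex II, -0.19 for complex III, -0.10 for complex IV and -0.13 for complex V. The 10 lower members were Atp5g2, Lhpp, Ndufv3, Ndufv2, Cox7a2, Ndufb9, Uqcrq, Uqcrb, Ppa1 and Ndufa7. Atp5g2 had 62 (WT) and 26 (cKO) counts, a log2 fold change of -0.73, but summed with its copies Gm10175 and Gm10231 it differed by -0.15. Lhpp stood at 4.86 and 2.86 CPM (-0.60), and Ndufv2, an iron-sulfur subunit of the NADH-binding module, at 47.7 and 36.0 CPM (-0.40). The only nuclear member higher was Ndufa12, an accessory subunit, at 10.0 and 12.5 CPM (0.29, limits 0.06 to 0.56). The 13 mitochondrially encoded subunits had a median of 0.19, and 5 of them passed 1.2-fold upwards and 1 downwards. With copies summed, mt-Co2 (0.72 alone, 0.03 summed), mt-Nd3 (0.28 and 0.24) and the lower mt-Atp6 no longer passed 1.2-fold, while mt-Nd4l stayed higher (0.60 and 0.45), and mt-Nd2 (0.28) and mt-Atp8 (0.31) have no copy that was summed. In M1 too the values moved with length, from a median of -0.12 for other coding genes under 1 kb to 0.18 for those over 4 kb, and with the medians by length subtracted the nuclear median was -0.0162. The part of length was not tested.

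After IL-4 the genotypes were close. Of 104 members tested, 7 were higher and 3 lower in cKO M2 (median 0.03), fewer in each direction than the 17.3% higher and 13.4% lower over all 13245 genes. Among 76 nuclear coding members, 3 were higher and 1 lower. Ppa1, a soluble inorganic pyrophosphatase, stood at 18.7 and 24.8 CPM (0.38), Uqcrfs1 at 50.8 and 65.1 CPM (0.35), Cox6a2 at 2.04 and 2.72 CPM (0.29), and Ppa2, the mitochondrial pyrophosphatase, at 12.2 and 9.91 CPM (-0.27). For the other 72 the values lay inside 1.2-fold, such as Cox4i1 at 263 CPM in both libraries. The cKO minus WT difference was higher in M0 than in M1 for 72 of 75 nuclear members, and higher in M0 than in M2 for 72 of 75 as well, but the same M0 libraries enter both counts and the differences were not tested. Other coding genes under 1 kb moved the same way, with medians of 0.51 in M0, -0.12 in M1 and 0.06 in M2. The share of all genes that moved so is not given here.

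With LPS, most members were lower than in untreated cells, and so were most other genes in both genotypes. The median over all genes was -0.58 in WT and -0.55 in cKO on the log2(CPM + 1) scale, so the responses are also given relative to these shifts. In WT, 6 of 99 members were higher and 70 lower after LPS (median -0.53), against 21.7% and 63% of all 12813 genes. Relative to the all-gene median, 29 of 75 nuclear coding members were past 1.2-fold higher and 20 lower, and their median was 0.14 (39.2% of all genes higher and 38.8% lower on that scale). Nuclear members took 0.718 times and mitochondrially encoded subunits 0.685 times their M0 share of the library. In cKO, 2 of 99 were higher and 94 lower (median -1.11), against 25% and 60.5% of all 12666 genes, and the nuclear median stood at -1.05, below the all-gene median of -0.55. Relative to that median, 40.4% of all genes were higher and 39.9% lower, while 5 of 99 members were higher and 73 lower, among them 27 of 32 in complex I. This gap moved with length: other coding genes under 1 kb had a median of -1.10 in cKO and members of that length -1.01, and with the medians by length subtracted the nuclear median was -0.08, with 18 of 75 past 1.2-fold higher and 31 lower (39.4% and 39.6% of other coding genes on that scale). Proliferation markers were lower after LPS in 3 of 4 cases in WT (median -1.09) and 4 of 4 in cKO (-1.70). The part of either was not tested. The shares in cKO fell to 0.499 times (nuclear) and 0.523 times (mitochondrial) the M0 value. The same M0 libraries enter the genotype difference in M0 and these responses.

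By complex, the median response to LPS in WT was -0.63 for complex I, -0.27 for complex II, -0.41 for complex III, -0.24 for complex IV and -0.50 for complex V, and 14 of 16 complex IV members lay above the all-gene median. No difference between complexes was tested, and their shares of the library gave another order, at 0.719, 0.714, 0.693, 0.840 and 0.657 times the M0 share for complexes I to V. Ndufs4 rose after LPS in both genotypes, from 24.8 to 57.1 CPM in WT (log2 fold change 1.17, limits 1.07 to 1.34) and from 39.1 to 51.6 CPM in cKO (0.39), and was the highest nuclear member in each. Ndufs3, a core iron-sulfur subunit, went from 46.5 to 63.4 CPM in WT (0.44) but from 70.7 to 53.1 CPM in cKO (-0.41). Its untreated libraries were far apart and its LPS libraries were between them. Ndufa12 fell from 40.0 to 10.0 CPM in WT (-1.89) and from 68.9 to 12.5 CPM in cKO (-2.38), so subunits of complex I did not move together. In WT and cKO, the log2 fold changes were -1.82 and -2.93 for Lhpp, -1.51 and -2.42 for Atp5g1, and -1.46 and -2.29 for Ndufs8, another iron-sulfur subunit of complex I. Cox10 went from 19.4 to 6.18 CPM in WT and from 20.4 to 6.62 CPM in cKO, alike in both genotypes, and Cox15 changed by -0.24 and 0.12. Among mitochondrially encoded subunits the values were -1.46 and -2.09 for mt-Nd1 and -0.33 and -0.59 for mt-Co1. mt-Co2 alone was higher after LPS in WT by 1.58, but summed with its copies it was lower by 0.52, the direction of most of the others.

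**Figure D4:**
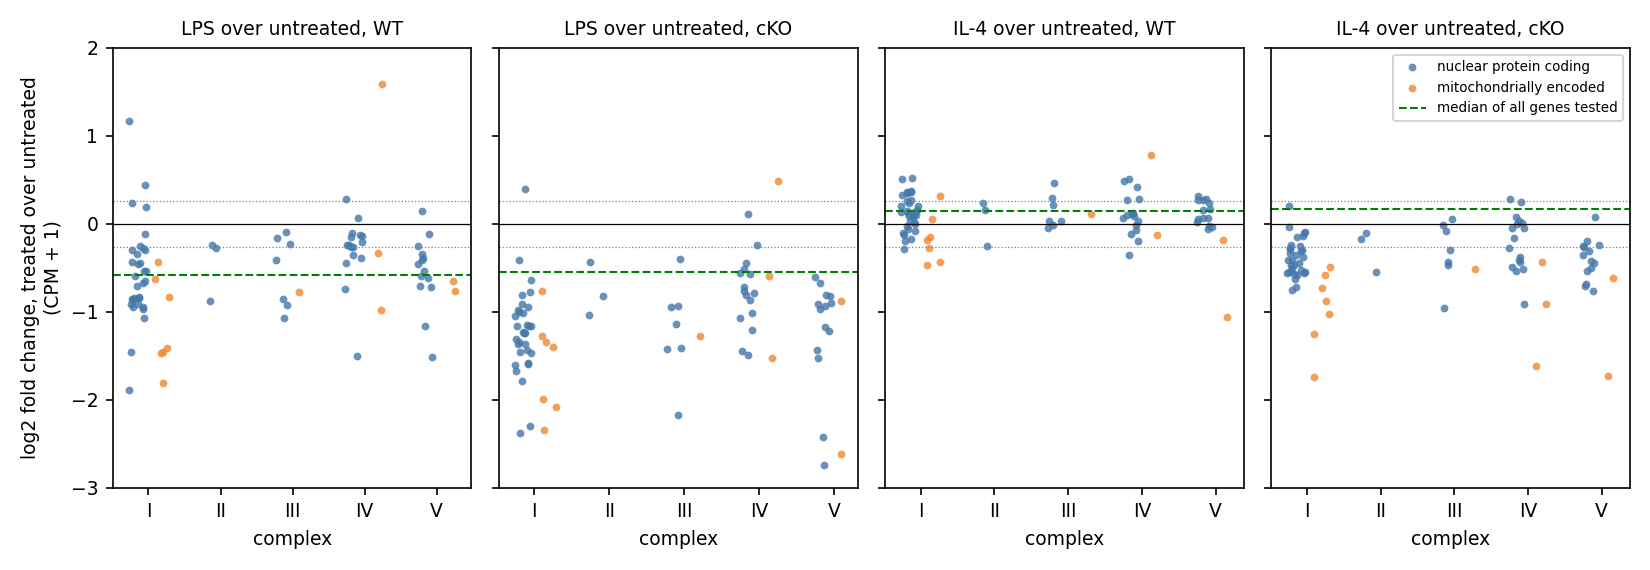
Log2 fold change of treated over untreated cells (y axis, CPM + 1) for each tested coding member, by complex (x axis), after LPS in WT and cKO and after IL-4 in WT and cKO, with the all-gene median as a dashed line. In WT the members scatter around the dashed line after both treatments, while in cKO most lie below it. The members listed at 3 or fewer counts in either library are left out.

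After IL-4 the all-gene medians were 0.15 in WT and 0.17 in cKO. The sample titles number the M2 libraries apart from the M0 and M1 libraries. An effect of IL-4 and any other difference between these sets of libraries cannot be told apart. All 8 neutrophil markers were higher after IL-4 (medians 4.57 in WT and 4.87 in cKO), as were 3 of 4 proliferation markers in each genotype (1.06 and 1.11), and their part in the values below was not tested. In WT, 25 of 103 members were higher and 13 lower (median 0.07), against 41.3% and 23.1% of all 13090 genes. Of 75 nuclear members 19 were higher and 3 lower, and of 13 mitochondrially encoded subunits 2 were higher and 5 lower (median -0.18). The mitochondrial calls depended on the copies: summed with them, mt-Co2 went from 0.78 to -0.27, mt-Nd4 from -0.15 to 0.53, mt-Atp6 from -1.05 to -0.04 and mt-Nd4l from -0.44 to -0.17, and mt-Co3, with 3 counts of its own in WT M2, was at -0.34. For mt-Nd4 the sum rose through Gm28439, with 0 counts in WT M0 and 21979 in WT M2, while mt-Nd4 itself had 37091 and 36216. A change in level and a change in counting cannot be told apart there. Relative to the all-gene median the nuclear median was -0.05, with 6 of 75 nuclear members higher and 9 lower. Of all 103 members, 9 were higher and 26 lower, against 31.2% and 31% of all genes. Ndufv3 went from 31.3 to 45.1 CPM (0.52), Cox7a2l, a factor that joins complexes III and IV, from 79.1 to 113 CPM (0.51), Ndufc2, a membrane-arm subunit, from 35.1 to 50.4 CPM (0.51), Cox6a1 from 137 to 192 CPM (0.49) and Uqcrc1, a core subunit of complex III, from 153 to 212 CPM (0.46). These 5 were among the higher members, while Ppa1 went from 30.1 to 18.7 CPM (-0.66). In cKO, 4 of 104 members were higher and 69 lower (median -0.43), against 44.7% and 26.2% of all 12966 genes, with 49 of 76 nuclear and all 13 mitochondrially encoded members lower. Summed with Gm28439, mt-Nd4 was at -0.19, inside 1.2-fold, but that copy had 0 counts in cKO M0 and 20140 in cKO M2. Relative to the all-gene median, 3 members were higher and 84 lower, against 36% and 34.8% of all genes. Uqcr11 fell by 0.96, Ndufa4 by 0.91 and Lhpp by 0.82 there. Cox7a2l (91.5 to 109 CPM, 0.25) and Ndufc2 (41.5 to 48.0 CPM, 0.20) were the highest nuclear members among those that averaged 100 counts or more. In cKO the response to IL-4 also moved with length, from a median of -0.36 for other coding genes under 1 kb to 0.50 for those over 4 kb, against 0.07 and 0.21 in WT, and the part of length was not tested.

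Genes that build and serve the complexes gave a more varied picture, and the short lists below are to be read against the 25% higher and 29% lower over all genes in M0. In M0, 8 of 15 complex I assembly factors were higher in cKO and 0 lower (median 0.31), with Ndufaf7, a methyltransferase for complex I, at 0.67. All 4 complex II assembly factors, 2 of 6 for complex III, 3 of 4 for complex V, 7 of 11 coenzyme Q synthesis genes and 5 of 11 carriers were higher and none of these lower. Of 16 complex IV assembly factors, 10 were higher and 1 lower, with Cox20 at 0.78 and Coa5 at -0.66. The 10 subunits without a pathway entry had 7 higher and a median of 0.52, close to the members, with Ndufa3 at 0.78 and the large Ndufs1 and Sdha at -0.03 and -0.04. The vacuolar ATPase genes left out by the rule showed no such direction, with 5 of 17 higher, 6 lower and a median of 0.06. Nor did the 8 tested regulators of mitochondrial biogenesis, of which 0 were higher and 3 lower (median -0.18), with Hcfc1 at -0.76, or the 11 genes for mitochondrial DNA maintenance and transcription (3 higher, 1 lower), with Lrpprc at -0.37. After LPS in WT, 14 of 15 complex I assembly factors were lower (63% of all genes) with a median of -1.01, below both the members' -0.53 and the all-gene -0.58. All 6 complex III assembly factors and 9 of 11 genes for mitochondrial DNA maintenance and transcription were lower as well. The lowest of these was Lrpprc, which stabilises mitochondrial messenger RNA, at -3.03, and Pprc1, a coactivator of respiratory genes, was at -3.74. Sco1 and Sco2, both copper chaperones of complex IV, went in opposite directions after LPS in WT, at 3.37 and -2.96.

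Single regulators and carriers outside the rule were followed by name. Cycs, which encodes cytochrome c, stood at 93.8 (WT) and 111 CPM (cKO) in M0, 142 and 137 CPM in M1, and 58.1 and 71.1 CPM in M2. It was thus high with LPS and low with IL-4. Ucp2, a mitochondrial carrier, stood at 722 and 1033 CPM in M0, 321 and 303 CPM in M1, and 1559 and 1156 CPM in M2. Tfam, which binds and transcribes mitochondrial DNA, stayed between 12.4 and 20.8 CPM. Ppargc1b, a coactivator of mitochondrial genes, was 2.37 and 1.86 CPM in M0 and 19.9 and 10.5 CPM in M2, while its relative Ppargc1a had 0 counts in all 6 libraries. AA467197, an NDUFA4-related gene, stood at 4.35 and 2.66 CPM in M0, 623 and 492 CPM in M1, and 138 and 166 CPM in M2. It was low only in untreated cells, unlike Ndufa4 itself, which was at 67.7 and 104 CPM in M0 and 40.1 and 37.5 CPM in M1.

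In Raw264.7 cells the values were read from the deposited signal, which is scaled within each table, and log2 fold changes were taken on signal + 1 where the mean signal reached 1. The lines of the Zmynd8 tables and those of the p65 tables stood apart. Xist, the RNA that silences an X chromosome, had 7109 to 8467 reads in the Zmynd8 lines and 0 to 3 in the p65 lines, and ribosomal RNA genes took 6.75% to 14.6% and 0.256% to 0.675% of reads, so no fold change was taken between the 2 sets. In cells with D/E-A in place of WT Zmynd8, nuclear members were lower and most mitochondrially encoded ones higher. Of 87 members tested, 8 were higher and 62 lower (median -0.61), against 36.7% and 35.9% of all 12770 genes. Nuclear coding members were lower in 61 of 77 cases (median -0.69), and their share of reads was 0.370% against 0.575%. Of 10 mitochondrially encoded subunits 6 were higher and 1 lower (median 0.56), with shares of 0.449% against 0.227%. By complex, 29 of 32 members of complex I (median -0.72), 0 of 3 of complex II (-0.08), 5 of 7 of complex III (-0.49), 15 of 17 of complex IV (-0.69) and 11 of 14 of complex V (-0.82) were lower. Ribosomal RNA genes took 6.75% of the D/E-A and 14.6% of the WT Zmynd8 library, and all 7 macrophage markers were higher with D/E-A (median 1.08). All 8 neutrophil markers (median -1.13) and 5 of 6 dendritic cell markers (-0.57) were lower, as the nuclear members were. The part of these in the result was not tested.

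Named members showed how wide this spread was. Ndufa2, an accessory subunit of complex I, had a signal of 556 with D/E-A and 1885 with WT Zmynd8, a log2 fold change of -1.76 (limits -1.90 to -1.62). Atp5e had 1147 and 3500 (-1.61) and Uqcrq, a small complex III subunit, 879 and 2429 (-1.46). These short subunits were far lower with D/E-A, whereas Atp5a1 had 7387 and 7374 (0.00). Cox15 went the other way with 752 and 297 (1.34, limits 1.15 to 1.54), as did mt-Co1 with 46940 and 18630 (1.33). As in M0 macrophages, values moved with transcript length, here with the short genes lower. Other coding genes had medians of -0.78 under 1 kb, -0.33 at 1 to 2 kb, 0.11 at 2 to 4 kb and 0.44 over 4 kb. Members under 1 kb were lower in 41 of 42 cases with a median of -0.82, against 83.3% of other genes of that length, and after subtracting the medians by length the nuclear median was -0.07. Of the 10 subunits without a pathway entry, 6 were lower and 2 higher (median -0.99), and 11 of 14 complex I assembly factors were lower (median -0.84).

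Zmynd8 KO cells against the same WT Zmynd8 cells gave smaller differences. The Zmynd8 signal itself was 117 and 506 in KO and WT (-2.11). Of 111 members tested, 16 were higher and 39 lower (median -0.12), against 33.8% and 36.5% of all 21301 genes, while 3 of 79 nuclear members were higher and 30 lower (median -0.16). Of the 13 mitochondrially encoded subunits, 6 were higher and 2 lower (0.25). Cox15 stood at 704 and 317 (1.15), mt-Co1 at 36200 and 19880 (0.86) and Ndufa2 at 999 and 2012 (-1.01), so these 3 lay on the same side as with D/E-A, but the WT Zmynd8 library is shared by both comparisons. Ribosomal RNA genes took 11.4% of the KO and 14.5% of the WT Zmynd8 library, all 7 macrophage markers were higher in KO (median 0.43) and 4 of 8 neutrophil markers were lower (-0.26). Other coding genes under 1 kb had a median of -0.29 and members of that length -0.27, and with the medians by length subtracted the nuclear median was -0.06. The part of these in the result was not tested.

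In the p65 lines, with K122R, 17 of 110 members were higher and 23 lower than with WT p65 (median -0.07), against 30.8% and 32.5% of all 19669 genes. Of the 17 higher, 12 were among 19 pseudogenes or non-coding members (median 0.53), many with few reads, such as Gm15694 with 21 and 13 (limits -0.32 to 1.87), while 3 of 78 nuclear coding members were higher and 16 lower (median -0.11). With counting limits added to the fold rule, 6 members were higher and 14 lower, but no share over all genes is given for that rule. Scaled by the totals of recovered reads, the members' median was -0.22. Ribosomal RNA genes took 0.675% of the K122R and 0.256% of the WT p65 library, 3 of 4 proliferation markers were lower (median -0.55) and 3 of 4 M1 markers higher (0.90), and their part was not tested. In p65 KO cells, 22 of 111 were higher and 15 lower (median 0.08), against 26.3% and 25.7% of all 19879 genes, with 16 of 78 nuclear members higher and 1 lower (median 0.13) and 5 of 20 pseudogenes or non-coding members higher and 11 lower (-0.33). With counting limits added, 17 members were higher and 2 lower, a rule for which no share over all genes is given. All 4 proliferation markers (median -0.39) and 3 of 4 M1 markers (-0.34) were lower in p65 KO, and their part was not tested. Other coding genes under 1 kb had a median of 0.19 in p65 KO, 39.2% of them higher. With the medians by length subtracted, the nuclear median was -0.01 with 4 of 78 higher and 5 lower, against 20.9% and 17.6% of other coding genes on that scale. The member that stood out in both was Cox6a2, the muscle-type form of complex IV subunit 6A, with a signal of 137 in K122R, 107 in p65 KO and 33.4 in the shared WT p65 library, or 134, 105 and 34 reads. Its log2 fold changes were 2.002 (limits 1.48 to 2.62) and 1.65 (1.11 to 2.28). Both comparisons use the same WT p65 library, which was low for this gene. Atp5e stood at 1772 in p65 KO and 1239 in WT p65 (0.52), and Ndufb7, a complex I subunit, at 444 and 326 (0.44). The Rela signal was 5963 (K122R) and 1571 (WT p65) in one table and 778 (p65 KO) and 1574 in the other.

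**Figure D5:**
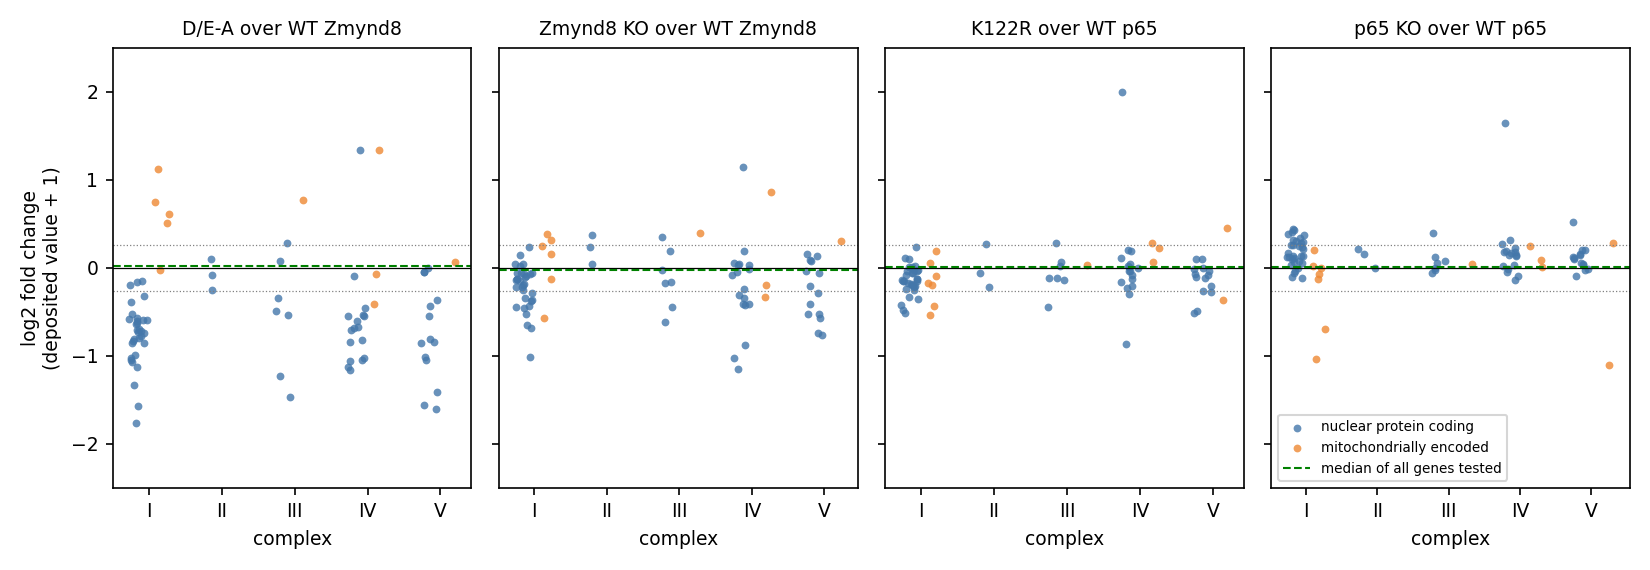
Log2 fold change (y axis, deposited signal + 1) for each tested coding member, by complex (x axis), in the 4 Raw264.7 comparisons, nuclear genes in blue and mitochondrially encoded in orange, with dotted lines at 1.2-fold and the all-gene median dashed. With D/E-A most blue points lie below 0, with a median of -0.69, and the orange points mostly above, while in the p65 comparisons most points lie near 0, with Cox6a2 at 2.002 and 1.65 far above and, in p65 KO, mt-Atp8 at -1.11 and mt-Nd4l at -1.03 far below. Members with 3 or fewer reads in either library are left out.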

How the data were processed

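For BMDMs the authors used TopHat on poly(A) RNA-seq reads, with the transcriptome of mm10, and deposited an estimated count and a TPM per gene. For Raw264.7 cells the authors deposited a signal per gene, made of whole reads (within 0.1) divided by a factor for each library, in 4 tables normalized separately. Columns with the authors' log2 fold changes and p-values, 2 unlabelled columns of per-sample values and the 35 genomic samples were not used here. Entries that name no gene (431, 431 and 2 in the BMDM tables) held no counts.

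Estimated counts were rounded and divided by library totals (CPM, pseudocount 1). Signals were used with a pseudocount of 1, since the design had assumed counts there. Raw264.7 rows were matched by symbol. Genes were tested with a mean of at least 10 counts or a signal of at least 1, and no fold change is given for a member with 3 or fewer counts in a library (such as mt-Co3 in WT M2), though such members are in the counts and medians. Transcripts and shared 50-base words came from GENCODE M21, with the coordinates of GRCm38. Scripts (Python 3.11.15, numpy 2.4.6, pandas 2.3.3, scipy 1.17.1) were tested on simulated data.

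The pathway whose members are described, the lists and the tests were chosen with earlier results of these data known. Named genes were the 5 highest and 5 lowest members per comparison (mean of at least 100 counts or a signal of 10), a fixed set of subunits and regulators, and both ends of each pathway list. Members named beyond these, such as Ndufs8, Cox5b, Uqcr11 after IL-4, Atp5h and the 10 lower in M1, were chosen after their values were seen.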

Additional observations from a re-analysis of the deposited data

Results flagged for a closer look

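The cKO minus WT difference on the log2(CPM + 1) scale was not the same in all 3 states, and none of these differences between states was tested, since each rests on 4 single libraries. The median difference over tested members in M1 minus that in M0 was -0.64, and the median IL-4 response over tested members in cKO minus that in WT was -0.50, each a difference between 2 medians. With the medians of coding genes of similar length subtracted, both gaps were smaller: the nuclear medians were 0.0987 in M0 and -0.0162 in M1, and 0.0186 and -0.136 for IL-4 in WT and cKO. The share of all genes past 1.2-fold in opposite directions in 2 states is not given, so the count of 14 members below has no background. For these 14 members, past 1.2-fold in opposite directions in 2 states, the change from M0 to M1 was -0.72 for Ppa1, -0.86 for Uqcrb, -0.87 for Ndufb9, -1.35 for Ndufv3, -0.88 for Ndufv2, -1.10 for Lhpp, -1.001 for Cox7a2, -0.90 for Ndufa7, -0.91 for Uqcrq, -1.59 for Atp5g2 and -1.85 for mt-Atp6. From M0 to M2 it was -0.64 for Ppa2, -1.30 for mt-Nd4l and -0.98 for Gm28438. Atp5g2, mt-Atp6, mt-Nd4l and Gm28438 share sequence with copies, and summed they were not past 1.2-fold in opposite directions: 0.77 in M0 and -0.15 in M1 for Atp5g2, 0.74 and -0.02 for mt-Atp6, 0.20 in M0 and 0.03 in M2 for mt-Nd4l, and 0.78 and 0.08 for mt-Nd3 with Gm28438.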

How the results depend on the processing

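Each value rests on 1 library per group, so no library could be left out. No paired analysis was possible because the labels give the groups no shared replicate numbers. Among the main counts and medians recomputed under other settings, 119 kept their direction and size, 31 moved and 4 reversed. For the 1.5-fold rule, the counting limits and the higher mean signal, shares over all genes are not given, so those counts show only the effect of the setting. At a fold change of at least 1.5, the members past it numbered 43 in M0, 5 in M1 and 3 in M2 (cKO against WT), 48 for LPS in WT, 7 and 28 for IL-4 in WT and cKO, 25 for Zmynd8 KO, 16 for K122R and 13 for p65 KO. With counting limits added to the fold rule they numbered 20 for K122R and 19 for p65 KO, and at a mean signal of at least 5, 24 for p65 KO. Median ratio scaling gave member medians of -0.12 in M1, 0.141 (reversed) and -0.48 for LPS in WT and cKO, -0.0747 (reversed) and -0.58 for IL-4 in WT and cKO, and -0.20 for Zmynd8 KO, and recovered-read totals gave -0.20 for Zmynd8 KO and -0.22 for K122R. With the median of coding genes of similar length subtracted, a choice made after seeing the data, nuclear members past 1.2-fold in either direction numbered 22 in M0, 7 in M1, 29 for IL-4 in cKO, 39 for D/E-A and 9 for p65 KO. Of other coding genes on that scale, 20% were higher and 21.8% lower in M0, and 16% and 14.5% in M1. The shares were 32.9% and 32.1% for IL-4 in cKO, 31.6% and 32.1% for D/E-A, and 20.9% and 17.6% for p65 KO. The medians of the nuclear members were then 0.0987, -0.0162 and -0.0301 in M0, M1 and M2, 0.0556 (reversed) and -0.0760 for LPS in WT and cKO, 0.0186 and -0.136 for IL-4 in WT and cKO, -0.0743 for D/E-A, -0.0561 for Zmynd8 KO and -0.0131 (reversed) for p65 KO. The M2 median was 0.0255 before the subtraction, so its sign changed too, outside the 4 marked as reversed. The cause of these changes was not tested. Depth limits members such as Cox11, Cox4i2 and Cox6b2.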

Other observations

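In Raw264.7 cells AA467197, the NDUFA4-related gene outside the rule, had 10140 reads with D/E-A, 18277 with WT Zmynd8 and 16416 in Zmynd8 KO. In the p65 set it had 29 reads with K122R, 26 in p65 KO and 15 with WT p65. These reads are set side by side with no comparison, since the 2 sets of tables were normalized separately and the lines stood apart in other genes too. After IL-4, 7 of 11 coenzyme Q synthesis genes were higher and 3 lower in WT BMDMs (median log2 fold change 0.44), against 41.3% higher and 23.1% lower over all genes, and 1 was higher and 5 lower in cKO (median -0.07), against 44.7% and 26.2%. This difference was not tested.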
